A study of Mus musculus with 12 samples.

Results

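The 10 genes described here make, conjugate, move and sense bile acids in the liver, and were chosen by name as a set of bile acid synthesis and transport genes. They are the synthesis enzymes Cyp7a1, Cyp8b1, Cyp27a1 and Cyp7b1, the conjugating enzyme Baat, the transporters Slc10a1, Abcb11 and Slc51b, and the nuclear receptors Nr1h4 and Nr0b2. Each was matched by its GENCODE M21 symbol to 1 of the 47729 gene identifiers in the count tables, and all 10 were among the 16823 genes with enough counts to be tested. Liver RNA of 12 male C57BL/6 mice was sequenced to ask what changes in the STAM model of non-alcoholic steatohepatitis (NASH), and what changes in it under I-BET151, an inhibitor of the BET bromodomain proteins. The healthy group (labelled Naive_vehicle) held 4 wild-type mice on a normal diet that were given vehicle. The STAM-vehicle group (STAM_vehicle) held 4 mice injected with streptozotocin on day 2 of life, fed a high-fat diet from week 4 and given vehicle from week 6 to week 9. The STAM-I-BET151 group (STAM_treated) held 4 mice with the same injection and diet that were given 10 mg/kg I-BET151 by mouth once daily over those weeks. Livers were taken at the end of dosing. The injection and the diet differ together between healthy and STAM mice and cannot be told apart, and neither can the compound and its suspension, since I-BET151 was suspended in hydroxypropyl methylcellulose with Tween 80 and the vehicle was methylcellulose.

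Hepatocytes make bile acids from cholesterol by a classical route that Cyp7a1 opens and by an alternative route that uses Cyp27a1 and Cyp7b1, while Cyp8b1 adds the hydroxyl group that sends the product towards cholic acid. The acids are joined to taurine or glycine, pumped into bile, reabsorbed in the gut and taken up again from portal blood. In textbook accounts the bile acid receptor FXR, encoded by Nr1h4, raises Nr0b2 in the liver and Fgf15 in the ileum, and both lower Cyp7a1 and Cyp8b1.

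Counts on genes summed to between 34711229 and 53365596 per mouse, and are given here as CPM, which divides each count by its TMM-normalized library size. The liver label matched the markers by level. The 6 hepatocyte markers looked up (Alb, Ttr, Apob, Cps1, Hnf4a and Tat) summed to between 17950 and 114100 CPM per mouse. The 5 pancreatic acinar markers looked up also had counts, but summed to between 2.64 and 5.47 CPM. STAM-I-BET151 mouse 3 stood apart from the other 11. It had 2.71% of its counts on mitochondrial genes against 4.51% to 7.3% in the others, and a TMM factor of 1.61 against 0.77 to 1.11. The study left out 1 STAM-I-BET151 sample that it does not name, so all 4 were kept and values without mouse 3 are given where they differ.

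Promoter sequence is shown for Cyp8b1 and Nr0b2, the 2 members whose STAM and healthy mice were fully separated in both comparisons with healthy liver. RefSeq promoters (GRCm38.p6) were held for 7 of the 10 genes, and in them 3 short motifs named for the factors known to bind such letters were searched on both strands. These were CAAGGNCA of the LRH-1 kind, CAAAGNCCA of the HNF4 kind and GTCANTGAC of the FXR kind. The Cyp8b1 sequence is chr9:121916306-121916555 on the minus strand and the Nr0b2 sequence is chr4:133553126-133553375 on the plus strand, each the 250 bases before the start of the gene, with motif matches in capitals.
Cyp8b1: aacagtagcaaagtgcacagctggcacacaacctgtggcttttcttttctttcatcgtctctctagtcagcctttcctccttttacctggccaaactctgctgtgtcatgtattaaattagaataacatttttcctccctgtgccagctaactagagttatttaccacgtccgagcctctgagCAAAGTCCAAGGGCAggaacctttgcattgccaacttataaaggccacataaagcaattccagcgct
Nr0b2: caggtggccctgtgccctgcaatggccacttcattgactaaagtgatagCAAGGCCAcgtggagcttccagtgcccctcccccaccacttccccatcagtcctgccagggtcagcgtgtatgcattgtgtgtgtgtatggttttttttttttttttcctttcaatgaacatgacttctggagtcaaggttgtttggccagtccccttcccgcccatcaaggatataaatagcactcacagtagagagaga
In Cyp8b1 the capitals are an HNF4-kind match, CAAAGTCCA, whose last letters overlap an LRH-1-kind match, CAAGGGCA, from bases -67 and -60 relative to the start. In Nr0b2 they are an LRH-1-kind match, CAAGGCCA, from base -201. Of the 32851 promoters of 300 bases in the table, 6.71% held the LRH-1-kind letters, 1.98% the HNF4-kind letters and 0.387% the FXR-kind letters. Among the 7 genes searched, the only other match was HNF4-kind, on the opposite strand of Slc10a1 at base 24 after the start. No promoter was held for Cyp7a1, Cyp7b1 or Baat, so these were not searched. A match is a description of the letters and not a measured binding site.

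In healthy liver, levels per kilobase of exon set the 10 genes in this order. Cyp8b1 was highest at 520 ± 113 CPM per kb (SD, n = 4), followed by Slc10a1 at 390 ± 36.6, Cyp27a1 at 268 ± 20.7, Baat at 177 ± 17.1 and Nr1h4 at 71 ± 3.65, with no overlap between neighbours in this order. Abcb11, Nr0b2, Cyp7b1 and Cyp7a1 followed at 55.6, 41.6, 40.9 and 36.2 CPM per kb, and their ranges overlapped. Slc51b, a subunit of a basolateral bile acid exporter, was far below at 0.358 ± 0.254 CPM per kb. In STAM-vehicle liver the order changed at both ends. Slc10a1 was highest at 391 ± 50.6 CPM per kb, Cyp8b1 stood at 251 ± 75.5 and overlapped Cyp27a1 at 242 ± 53.1, and Nr0b2 dropped to the ninth place at 17.7 ± 4.8 CPM per kb.

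**Figure D1:**
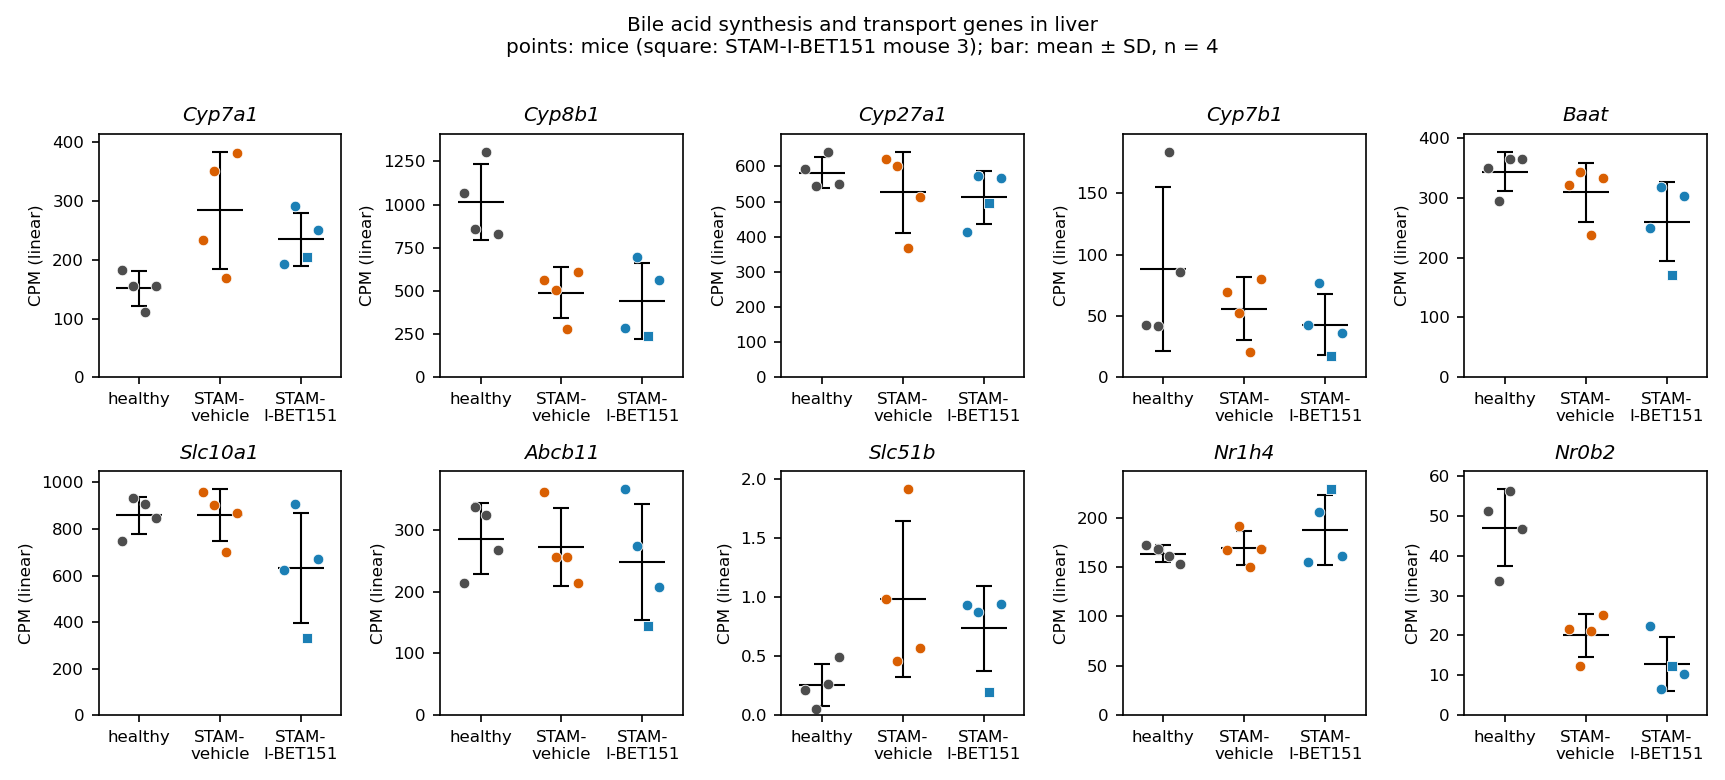
Level of each of the 10 genes in CPM (linear axis from 0) in healthy, STAM-vehicle and STAM-I-BET151 liver, with 1 point per mouse and the mean ± SD of 4 mice. Cyp8b1 and Nr0b2 were lower in every STAM mouse than in every healthy mouse, and Cyp27a1, Abcb11, Slc10a1 and Nr1h4 overlapped between all groups.

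Between STAM-vehicle and healthy liver, Cyp7a1 was 1.88-fold higher and Nr0b2 was 2.35-fold lower, and the other 8 genes did not pass the test. Nr0b2 encodes SHP, the receptor without a DNA-binding domain that represses Cyp7a1 and Cyp8b1. Cyp8b1, with means of 489 CPM in STAM-vehicle and 1014 CPM in healthy mice, separated the groups without passing. The 2 calls among 10 members stand beside 7.1% of all genes called in this comparison at an adjusted p of at most 0.05 (edgeR's quasi-likelihood test, Benjamini-Hochberg adjustment), 5.72% as higher and 1.38% as lower. No overlap between the groups was found for 2 of the 10 members, against 26.4% of all genes.

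Cyp7a1 (ENSMUSG00000028240, chr4:6265612-6275633, minus strand) encodes the rate-limiting enzyme of the classical route. Healthy mice 1 to 4 had 183, 155, 111 and 156 CPM, and STAM-vehicle mice 1 to 4 had 234, 351, 168.5 and 381 CPM. STAM-vehicle mouse 3 lay below healthy mouse 1, so the groups overlapped, and the other STAM-vehicle mice were above all healthy mice. The log2 fold change was 0.91 ± 0.25 (SE), with an adjusted p of 0.045 in the edgeR fit. This call sat close to the threshold. It was lost without healthy mouse 2, 3 or 4, STAM-vehicle mouse 1, 2 or 4, or STAM-I-BET151 mouse 1 or 4, with log2 fold changes from 0.72 to 0.99 and edgeR adjusted p from 0.0543 to 0.148.

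Nr0b2 (ENSMUSG00000037583, chr4:133553376-133556536, plus strand) had 51.4, 33.8, 56.25 and 46.9 CPM in healthy mice 1 to 4 and 21.7, 12.4, 21.05 and 25.1 CPM in STAM-vehicle mice 1 to 4. Every STAM-vehicle mouse was below every healthy mouse. The log2 fold change was -1.23 ± 0.32 (SE, edgeR adjusted p = 0.0328). The edgeR call was lost without healthy mouse 1, 3 or 4 or STAM-vehicle mouse 1, 2 or 3, at adjusted p from 0.0589 to 0.0929, with log2 fold changes from -1.27 to -1.06.

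Cyp8b1 (ENSMUSG00000050445, chr9:121914356-121916305, minus strand) had 1065, 859, 1306 and 828 CPM in healthy mice 1 to 4. STAM-vehicle mice 1 to 4 had 564, 508, 277 and 608 CPM, all below the lowest healthy mouse. Its log2 fold change of -1.05 ± 0.34 (SE) had an edgeR adjusted p of 0.0832. Without STAM-I-BET151 mouse 3, which belongs to neither group and enters through the shared spread, the log2 fold change was -1.07 and the adjusted p 0.0191.

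The alternative route and conjugation did not pass. Cyp27a1 (ENSMUSG00000026170, chr1:74713574-74737892, plus strand), the mitochondrial sterol hydroxylase that opens the alternative route, had means of 526 ± 115 CPM in STAM-vehicle and 582 ± 44.9 CPM in healthy mice (SD, n = 4), a log2 fold change of -0.15 ± 0.19 (SE). Cyp7b1 (ENSMUSG00000039519, chr3:18071950-18243338, minus strand), an oxysterol hydroxylase of the alternative route, ranged from 41.7 to 184 CPM among healthy mice, and lay between 21 and 80.1 CPM in STAM-vehicle mice. Its log2 fold change was -0.67 ± 0.53, and turned to 0.65 ± 0.59 with the lane as a factor, while the STAM-vehicle mouse in lane 2 was higher than the healthy mouse there by 0.902 on the log2 scale. Baat (ENSMUSG00000039653, chr4:49489422-49506557, minus strand), which joins bile acids to amino acids, lay between 295 and 365 CPM in healthy and between 237 and 343 CPM in STAM-vehicle mice, with a log2 fold change of -0.15 ± 0.2. The groups overlapped for each of these 3 genes.

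Among the transporters, neither the uptake carrier nor the canalicular pump passed. Slc10a1 (ENSMUSG00000021135, chr12:80953183-80968705, minus strand) encodes NTCP, which takes conjugated bile acids up from blood. Its means were 859 ± 111 CPM in STAM-vehicle and 859 ± 80.5 CPM in healthy mice (SD, n = 4), and the log2 fold change was 0.0003 ± 0.25 (SE). Abcb11 (ENSMUSG00000027048, chr2:69238282-69342616, minus strand) encodes BSEP, the pump for bile salts into bile, with means of 273 ± 63.1 and 286 ± 57.1 CPM and a log2 fold change of -0.07 ± 0.26. Slc51b (ENSMUSG00000053862, chr9:65412714-65422955, minus strand) was low throughout. It had 10, 2, 9 and 17 counts in healthy mice 1 to 4, and 41, 24, 99 and 27 counts in STAM-vehicle mice 1 to 4. As CPM, healthy mice lay between 0.053 and 0.489 and STAM-vehicle mice between 0.457 and 1.915, so STAM-vehicle mouse 2 overlapped healthy mouse 4. The log2 fold change of 1.96 ± 0.63 (SE) had an edgeR adjusted p of 0.0783. It was 1.94 with an adjusted p of 0.0222 without STAM-I-BET151 mouse 3. The end of Slc51b overlaps Rasl12, at 0.106 to 1.13 CPM, on the opposite strand. How the counting treated strand is not given in the sources used here, and the part of this overlap was not tested. The partner subunit of Slc51b, Slc51a, had between 0 and 2 counts per mouse and was not tested. Slc51a overlaps Pcyt1a, at 63.7 to 111 CPM, on the opposite strand.

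Nr1h4 (ENSMUSG00000047638, chr10:89454234-89533585, minus strand), which encodes FXR, did not pass. Its means were 164 ± 8.4 CPM in healthy and 169 ± 17.3 CPM in STAM-vehicle mice (SD, n = 4), with a log2 fold change of 0.05 ± 0.15 (SE, edgeR adjusted p = 0.881). Of the gut signal and its receptor, Fgf15 had 0 counts in all 12 livers. Fgfr4, the receptor, was at 39.7 ± 7.45 CPM in STAM-vehicle and 49.4 ± 4.47 CPM in healthy mice, and its co-receptor Klb at 26.6 ± 2.95 and 36.7 ± 8.31 CPM, and neither passed.

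**Figure D2:**
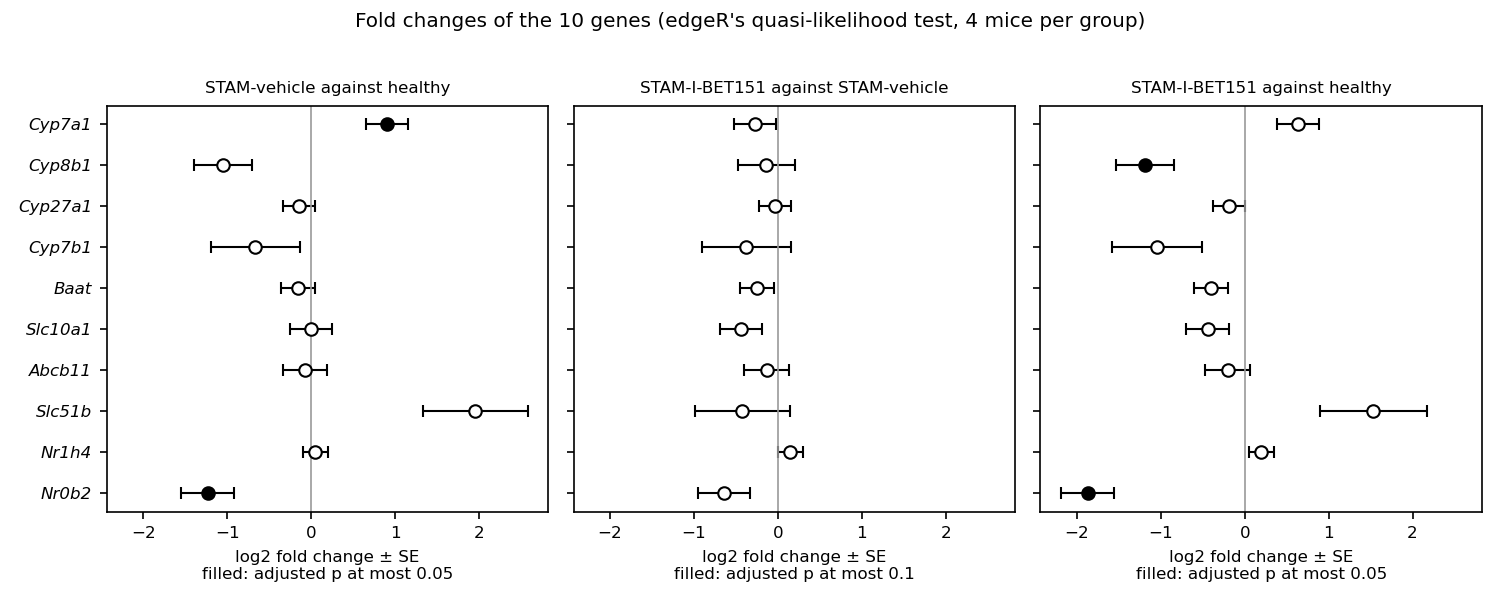
Log2 fold change ± SE of the 10 genes from the edgeR fit, in STAM-vehicle against healthy, STAM-I-BET151 against STAM-vehicle and STAM-I-BET151 against healthy liver. Filled points passed the threshold of that comparison: Cyp7a1 and Nr0b2 on the left, none in the middle, and Cyp8b1 and Nr0b2 on the right.

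How many members passed depended on the fit. DESeq2, the test of the study, called 4 members (Cyp7a1, Cyp8b1, Nr0b2 and Slc51b, at adjusted p of 0.0103, 0.0195, 0.0027 and 0.0201), where it called 10.2% of 18659 genes. The same 4 passed in limma-voom with sample weights, which called 33.7% of all genes, and in the edgeR fit of only these 2 groups, which called 23.9%. None passed with the sequencing lane as a factor, where 0.22% of all genes did. Only lane 2 held both groups, with 1 mouse each, and the STAM-vehicle mouse there differed from the healthy mouse by 1.06 for Cyp7a1, -1.03 for Nr0b2 and -0.81 for Cyp8b1 on the log2 scale.

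**Figure D3:**
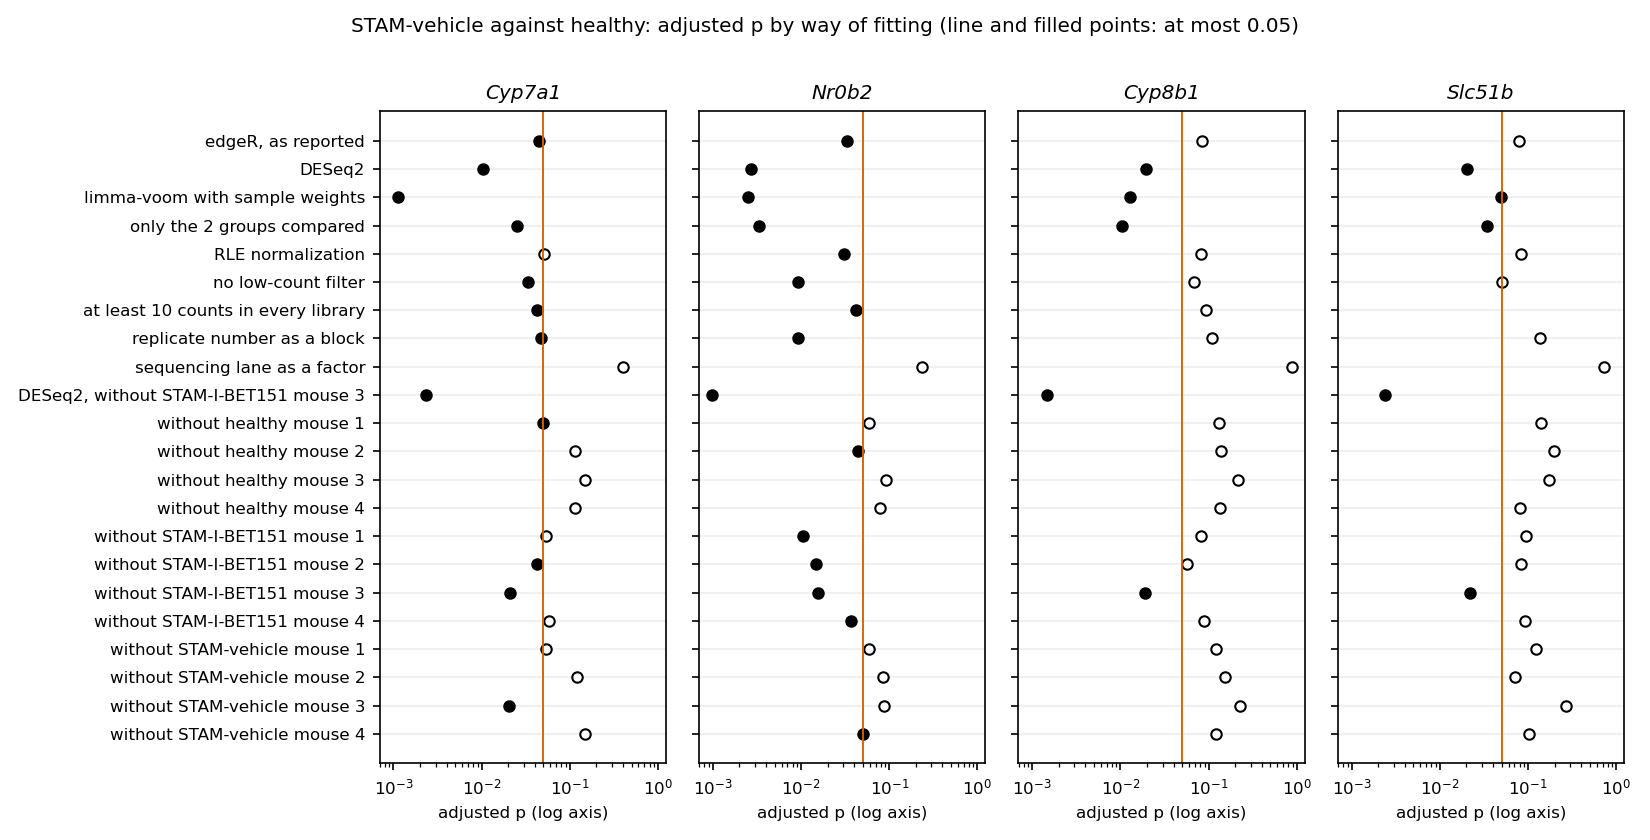
Adjusted p (log axis) of Cyp7a1, Nr0b2, Cyp8b1 and Slc51b in STAM-vehicle against healthy liver, for the reported edgeR fit, other ways of fitting and fits without 1 mouse. The line marks 0.05 and filled points are at or under it, and the points of each gene shown fall on both sides of it.

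The ratio of 2 genes within a mouse does not depend on the scaling of its library. Cyp8b1 had 5.82, 5.54, 11.8 and 5.32 counts for each count of Cyp7a1 in healthy mice 1 to 4. The ratio was 2.41, 1.45, 1.645 and 1.59 in STAM-vehicle mice 1 to 4, and 1.47, 2.385, 1.17 and 2.25 in STAM-I-BET151 mice 1 to 4. All 8 STAM mice lay below all 4 healthy mice, and the STAM groups overlapped. On the log2 scale the means were 2.75 ± 0.55, 0.8 ± 0.32 and 0.8 ± 0.49 (SD, n = 4), given as a description since the ratio joins genes already described. The log2 ratio of Cyp7b1 to Cyp7a1 was -1.03 ± 1.29, -2.43 ± 0.55 and -2.62 ± 0.74 in the 3 groups and overlapped between them. The log2 ratio of the uptake carrier Slc10a1 to the export pump Abcb11 was 1.6 ± 0.17, 1.67 ± 0.29 and 1.34 ± 0.45 and also overlapped.

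**Figure D4:**
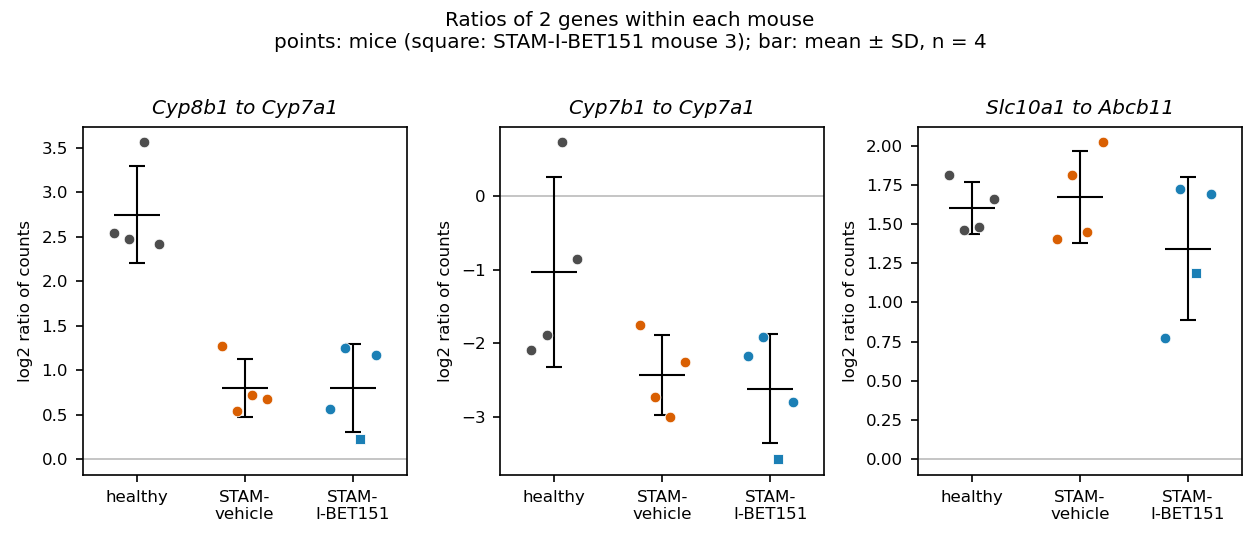
Log2 ratio of counts of 2 genes within each mouse, with the mean ± SD of 4 mice, for Cyp8b1 to Cyp7a1, Cyp7b1 to Cyp7a1 and Slc10a1 to Abcb11. The log2 ratio of Cyp8b1 to Cyp7a1 was 2.41 or higher in every healthy mouse and 1.27 or lower in every STAM mouse, and the other ratios overlapped.

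Cell type markers and RNA measures also differed between these groups. The summed level of the 6 hepatocyte markers was 93330 to 114100 CPM in healthy, 46620 to 68000 CPM in STAM-vehicle and 17950 to 76640 CPM in STAM-I-BET151 mice (63790 to 76640 CPM without mouse 3), although 0 of the 6 passed in either comparison with healthy liver. The 5 Kupffer cell and macrophage markers summed to 96.5 to 142 CPM in healthy, 158 to 265 CPM in STAM-vehicle and 135 to 231.5 CPM in STAM-I-BET151 mice, with 3 of 5 higher in STAM-vehicle. The 3 nuclear transcripts Malat1, Neat1 and Meg3 summed to 821 to 1234 CPM in healthy, 1338 to 2118 CPM in STAM-vehicle and 1140 to 4795 CPM in STAM-I-BET151 mice (1140 to 1544 CPM without mouse 3), and 0 of 3 passed. The 5 T cell markers were low, at 1.955 to 5.13 CPM in healthy, 4.72 to 5.96 CPM in STAM-vehicle and 1.7 to 3.01 CPM in STAM-I-BET151 mice, so the STAM groups did not overlap, and 1 of 5 (Cd4) was lower under I-BET151. The 5 ileal enterocyte markers, of which Fgf15 had no counts, summed to 75.5 to 104 CPM in healthy, 47.1 to 78.3 CPM in STAM-vehicle and 30.1 to 47.4 CPM in STAM-I-BET151 mice. Of the 3 of these that could be tested, 2 (Fabp2 and the bile acid uptake carrier Slc10a2, which is also on the cholangiocyte list) were lower in STAM-I-BET151 than in healthy mice. The part of these in the results on the 10 genes was not tested. Of the 6 hepatocyte markers, Hnf4a was at 1039 CPM in STAM-vehicle and 1052 CPM in healthy mice. Its log2 fold change was -0.018, against a median of -0.56 over the 6. In bulk liver, fewer hepatocytes, less RNA per hepatocyte and lower levels of some hepatocyte genes cannot be told apart. Summed levels of 7 cholangiocyte markers overlapped between all groups, at 56.7 to 77.7, 64.5 to 79.9 and 63.1 to 92.1 CPM. So did those of 5 stellate cell, 4 sinusoidal endothelial and 5 pancreatic acinar markers. Single genes of these lists passed all the same. Against healthy liver, stellate Col1a1 was higher in STAM-vehicle (log2 fold change 1.14, edgeR adjusted p = 0.0268) and in STAM-I-BET151 mice (1.395, 0.00648). In STAM-I-BET151 against healthy liver, stellate Reln was lower (-0.646, 0.0289) and cholangiocyte Krt7 was higher (0.816, 0.0257). Of 10 clock genes, 1 was lower in STAM-vehicle than in healthy mice, and their summed level was 586 to 750.5, 559.9 to 725.5, and 526 to 1107 CPM in the 3 groups (526 to 612 CPM in STAM-I-BET151 without mouse 3).

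I-BET151 against vehicle in STAM mice gave no member past the threshold of 0.1 that the study used for this comparison. The edgeR fit called 0 of 10, with 0 of 10 at an unadjusted p under 0.05, and DESeq2 and limma-voom also called 0. Over all genes edgeR called 0.351%, DESeq2 1.48% and limma-voom 7.16%. No member separated the groups, where 5.04% of all genes did. This comparison and the previous one share the STAM-vehicle mice. Of the log2 fold changes, 9 of 10 were below 0, as were 46.1% over all genes tested, and the median was -0.26 against 0.02 over all genes. Without STAM-I-BET151 mouse 3, 7 of 10 were below 0 against 49.3% of all genes, and the median was -0.0855 against 0.00415.

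Nr0b2 had the lowest log2 fold change of the members under I-BET151, -0.64 ± 0.31 (SE, edgeR adjusted p = 0.603). STAM-I-BET151 mice 1 to 4 had 22.3, 6.48, 12.3 and 10.2 CPM, so 3 of 4 were below every STAM-vehicle mouse and mouse 1 lay within their range. Without mouse 1 the log2 fold change was -1.05 (adjusted p = 0.253). Cyp7a1 had 192.5, 291, 204 and 250.5 CPM in STAM-I-BET151 mice 1 to 4, all within the range of STAM-vehicle mice, with a log2 fold change of -0.27 ± 0.25. Cyp8b1 had 283.5, 694, 238 and 563 CPM, with mice 1 and 3 near the lowest STAM-vehicle mouse and mice 2 and 4 near the highest. Its log2 fold change of -0.14 ± 0.34 turned to 0.08 without mouse 3.

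For several of the other members the value rested in large part on STAM-I-BET151 mouse 3. Slc10a1 had 625, 906, 330.4 and 670.3 CPM in mice 1 to 4, and its log2 fold change of -0.44 ± 0.25 against STAM-vehicle was -0.22 without mouse 3. Baat moved from -0.25 to -0.08, Cyp7b1 from -0.38 to -0.1, Slc51b from -0.43 to -0.09 and Nr1h4 from 0.15 to 0.05 when that mouse was left out. Abcb11 turned from -0.13 to 0.06. Cyp27a1 was at -0.04 ± 0.19 with all mice. Mouse 3 had the lowest level of its group in 6 members (Cyp8b1, Cyp7b1, Slc10a1, Abcb11, Baat and Slc51b) and the highest in Nr1h4, and none of these log2 fold changes passed with or without it. In the STAM-vehicle group, mouse 3 likewise had the lowest level in 7 members (Cyp7a1, Cyp8b1, Cyp27a1, Cyp7b1, Slc10a1, Nr1h4 and Baat) and the highest in Slc51b. These 2 mice were the only ones sequenced in lane 7, and no healthy mouse was.

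Between STAM-I-BET151 and healthy liver, in which disease model and compound both differ, 2 of 10 members passed at 0.05 and both were lower. Over all genes 15.1% were called, 9.88% as higher and 5.25% as lower. The healthy mice are the same as in the comparison with STAM-vehicle, and its values stand beside these only as values. Nr0b2 was 3.66-fold lower, with a log2 fold change of -1.87 ± 0.32 (SE, edgeR adjusted p = 0.00276), and no STAM-I-BET151 mouse reached the lowest healthy mouse. This edgeR call held without each of the 12 mice in turn, at adjusted p from 0.000776 to 0.0108, and with the sequencing lane as a factor, at 0.0316. Within lanes 2 and 5, which each held 1 mouse of both groups, Nr0b2 differed by -2.32 and -2.85 on the log2 scale.

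Cyp8b1 was 2.28-fold lower in STAM-I-BET151 than in healthy liver, with a log2 fold change of -1.19 ± 0.34 (SE, edgeR adjusted p = 0.0338), and the groups did not overlap. The edgeR call was lost without healthy mouse 1, 2, 3 or 4 or STAM-I-BET151 mouse 1, at adjusted p from 0.0597 to 0.102, and with the lane as a factor, at 0.439. Within lanes 2 and 5 the differences were -0.92 and -0.25 on the log2 scale. Cyp7a1 was at 0.63 ± 0.25 (edgeR adjusted p = 0.0993) and did not pass, although every STAM-I-BET151 mouse was above every healthy mouse. No overlap was thus found for 3 of 10 members (Cyp7a1, Cyp8b1 and Nr0b2), against 19.8% of all genes. Slc51b was at 1.53 ± 0.64 (adjusted p = 0.114), and at 1.855 with an adjusted p of 0.0369 without STAM-I-BET151 mouse 3. The log2 fold changes of the remaining 6 lay between -1.04 for Cyp7b1, which was at -0.0889 with the lane as a factor, and 0.2 for Nr1h4.

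A further 44 genes of bile acid handling were taken from a list by role, of which 40 had enough counts. In STAM-vehicle against healthy liver 2 were higher and 3 lower, where 5.72% and 1.38% of all genes were. No overlap between the groups was found for 15 of the 40, against 26.4% of all genes. The sinusoidal organic anion carriers Slco1a1 and Slco1a4, which take up bile acids among other substrates, both fell. Slco1a4 had 181 to 211 CPM in healthy and 31.2 to 44 CPM in STAM-vehicle mice, a log2 fold change of -2.36 ± 0.26 (SE, edgeR adjusted p = 0.000237). Slco1a1 had 71.5 to 185 CPM in healthy and 4.97 to 36.9 CPM in STAM-vehicle mice, a log2 fold change of -2.28 ± 0.49 (adjusted p = 0.014). Cyp3a11, which hydroxylates bile acids and many drugs, was 5.33-fold lower, at 738 to 1066 CPM in STAM-vehicle against 3745 to 5335 CPM in healthy mice (log2 fold change -2.42 ± 0.4, adjusted p = 0.00339). These 3 decreases kept passing in each edgeR fit without 1 mouse and were lost with the lane as a factor. Abcc4, a basolateral exporter, was 1.54-fold higher (log2 fold change 0.63 ± 0.17, adjusted p = 0.0399), and this call held in 4 of the 12 fits without 1 mouse. The bile acid sulphotransferase Sult2a1, a member of a multigene family whose reads can be split between copies, had 3, 2, 0 and 1 counts in healthy mice and 8 to 43 counts in STAM-vehicle mice (edgeR adjusted p = 0.019), too few for a fold change. This call held in 8 of the 12 fits without 1 mouse, with adjusted p up to 0.0652, and the lane as a factor ended it and that of Abcc4.

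Under I-BET151, 2 of the 40 genes passed against STAM-vehicle and both were lower, where 0.351% of all genes passed. Ppargc1a, a coactivator of nuclear receptors, had 7.33, 10.3, 7.39 and 12.5 CPM in STAM-I-BET151 mice 1 to 4 and 19.6 to 40.1 CPM in STAM-vehicle mice, a log2 fold change of -1.51 ± 0.27 (SE, edgeR adjusted p = 0.0485). Akr1d1, the reductase that acts after Cyp7a1 on the sterol ring, had 70.8, 119, 53.9 and 82.1 CPM in STAM-I-BET151 mice and 136 to 216 CPM in STAM-vehicle mice, a log2 fold change of -1.11 ± 0.23 (adjusted p = 0.0767). Both groups were fully separated for both genes, the only 2 of the 40 so separated, where 5.04% of all genes were. The Ppargc1a call was lost without STAM-vehicle mouse 4 (adjusted p = 0.133) or STAM-I-BET151 mouse 1 (0.165), in the fit of only these 2 groups (0.137), with the lane as a factor (0.184) and in the fit blocked by replicate number (0.173). The Akr1d1 call held in 3 of the 12 edgeR fits without 1 mouse, and the adjusted p reached 0.287 in the others, and it was lost in the fit of only these 2 groups (0.281) and with the lane as a factor (0.107). Gm7463, a pseudogene on the same strand, overlaps Akr1d1 and had 1.61 to 10.5 CPM.

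**Figure D5:**
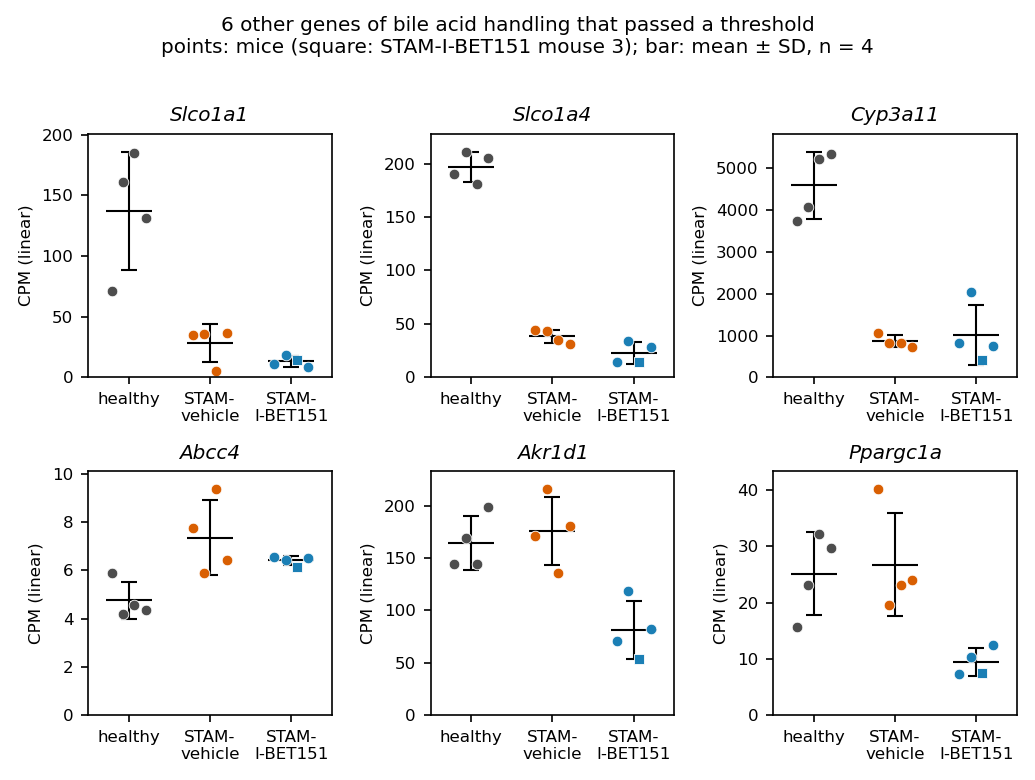
Level in CPM (linear axis from 0) of 6 genes of bile acid handling outside the set of 10, with 1 point per mouse and the mean ± SD of 4 mice. Slco1a1, Slco1a4 and Cyp3a11 were lower in every STAM mouse than in every healthy mouse, and Akr1d1 and Ppargc1a were lower in every STAM-I-BET151 mouse than in every other mouse.

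By role, all 4 other uptake carriers tested had log2 fold changes below 0 in STAM-vehicle against healthy liver (2 passed, median -1.79), and so did all 5 canalicular exporters (0 passed, median -0.18) and all 6 genes of side-chain shortening (0 passed, median -0.52). Of the other synthesis enzymes, 3 were above and 4 below 0 and 0 of 7 passed. Of the other receptors and regulators, 1 of 11 was above 0 and 0 passed. Over the 40 genes, 34 were below 0, where 49.1% of all genes tested were. Their median was -0.23, against -0.11 over the 10 members and 0.01 over all genes tested. Slc27a5, which activates bile acids before conjugation, was at 824 ± 94 CPM in STAM-vehicle and 955 ± 87.3 CPM in healthy mice (SD, n = 4) and did not pass. Hsd3b7, the next enzyme of the classical route, had 1 to 10 counts per mouse and was not tested. It is overlapped by 9430064I24Rik on the opposite strand, at 1.93 to 9.7 CPM. The protein-coding Gm49388, at 0 to 0.0193 CPM, overlaps it on the same strand. The value of Hsd3b7 is therefore uncertain, and the part of either overlap in it was not tested. In STAM-I-BET151 against healthy liver, 1 of the 40 rose and 10 fell, where 9.88% and 5.25% of all genes did. The median over the 40 was -0.43, against -0.3 over the members and 0.06 over all genes tested. The 6 with the lowest adjusted p were Slco1a4, Slco1a1, Cyp3a11, Ppargc1a, Sult2a1 and Akr1d1, of which only Sult2a1 rose.

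Across the 12 mice, Slc10a1 and Baat varied most alike among the members (Pearson r = 0.877 of log2 CPM, n = 12). STAM-I-BET151 mouse 3 had the lowest level of all mice in both genes. It had 330.4 CPM of Slc10a1 (next lowest 625.1) and 170.8 CPM of Baat (next lowest 237), and r without it was not computed. Cyp7a1 and Nr0b2 were the most opposed pair (r = -0.664). These correlations span the group differences and each mouse's own depth and composition, and are a description. Over all genes tested, the gene most like Cyp7a1 was Wif1 (r = 0.931 over 12 mice and 0.931 over 11 without STAM-I-BET151 mouse 3). Gm11517 (0.871) and Gm11798 (0.857) followed. All 3 were low, at no more than 0.658, 0.324 and 0.667 CPM. Most like Nr0b2 were Prkd3 (r = 0.884), Naa16 (0.873) and Tspan31 (0.862), with 0.875, 0.866 and 0.862 over 11 mice. Most like Abcb11 were Kpna4 (r = 0.932), Snap23 (0.921) and Arhgef12 (0.92), with 0.909, 0.861 and 0.853 over 11 mice. Only Wif1 and Kpna4 stayed among the 3 most alike without mouse 3.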

How the data were processed

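Liver RNA of 12 mice was sequenced from stranded mRNA libraries. The authors aligned reads with STAR 2.5.1b and deposited, per mouse, raw counts on each gene as whole numbers with no scaling, and the submitters' notes name mm10. Counting is credited to htseq-count in the paper and to featureCounts in the deposited names. The annotation release and strand setting are not given in the sources used here. Symbols and positions came from GENCODE M21 (GRCm38), for 47224 of 47729 identifiers.

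All 12 mice entered a single fit in R 4.3.3 with edgeR 4.0.16 (TMM, filterByExpr with a minimum count of 10, quasi-likelihood test, Benjamini-Hochberg adjustment over 16823 genes). The thresholds were 0.05, 0.1 and 0.05 for STAM-vehicle against healthy, STAM-I-BET151 against STAM-vehicle and STAM-I-BET151 against healthy. Each SE was taken from the fit as the absolute log2 fold change over the root of F. Within-library ratios are differences of log2 CPM (prior count 2). Alternatives were DESeq2 1.42.0, limma 3.58.1 (voom with sample weights), RLE normalization, 2 other filters, other thresholds, a block for the replicate number, fits of just the pair of groups at issue, the lane (from the deposited names) as a factor, and fits that drop a single mouse. DESeq2 without STAM-I-BET151 mouse 3 was added after seeing the data. Tables were made in Python 3.11.15 (pandas 2.3.3) and plots with Matplotlib 3.10.9. The fit was also run on simulated counts with the same spread for every gene, no outlying mouse and no lane effect. That run therefore does not test the calls near a threshold here.

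The 10 genes, the other lists, the motifs and the rule for named genes were chosen with earlier results of these data known. The rule names all 10 members, of the other list at most 6 genes per comparison that passed, in order of adjusted p, with Slc51a, Fgf15, Fgfr4, Klb, Hsd3b7 and Slc27a5, and the 3 genes most like Cyp7a1, Nr0b2 and Abcb11. The labels give 4 samples per group with replicate numbers, and the study gives them as livers of separate mice. Mice of 1 group differed by more than sampling noise in every pair (chi-square over degrees of freedom of 30.5 or more).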

Additional observations from a re-analysis of the deposited data

Results flagged for a closer look

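In groups of 4 mice, a mouse was singled out where its gap to the nearest other mouse, over the range of the group, was above Dixon's critical value at 95%. This picked 3 of 75 groups of values looked at, and chance alone picks about 1 in 20. Slc51b was at 0.197 CPM in STAM-I-BET151 mouse 3 and between 0.873 and 0.942 CPM in the other 3 mice of its group, a gap of 0.908 of the range. Slco1a1 was at 4.97 CPM in STAM-vehicle mouse 3 and between 34.95 and 36.9 CPM in the others (0.938). The log2 ratio of Cyp8b1 to Cyp7a1 was 3.56 in healthy mouse 3 and between 2.41 and 2.54 in the others (0.888).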

How the results depend on the processing

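The number of members past the threshold is given in the order STAM-vehicle against healthy, STAM-I-BET151 against STAM-vehicle and STAM-I-BET151 against healthy, as reported 2, 0 and 2. DESeq2 gave 4, 0 and 2, limma-voom with sample weights 4, 0 and 4, RLE normalization 1, 0 and 2, only the 2 groups compared 4, 0 and 1, the lane as a factor 0, 0 and 1, DESeq2 without STAM-I-BET151 mouse 3 4, 0 and 4, and the other thresholds 4, 0 and 3. Both low-count filters kept 2, 0 and 2. Fits without 1 mouse gave 0 to 4, 0 to 0 and 1 to 3. For the other 40 genes of bile acid handling the reported 5, 2 and 11 became 8, 2 and 16 with DESeq2, 18, 6 and 27 with limma-voom, 13, 0 and 6 with only the 2 groups compared, 0, 0 and 1 with the lane, 13, 4 and 22 with DESeq2 without STAM-I-BET151 mouse 3, and 1 and 18 in the latter 2 comparisons at the other thresholds, and 3 to 11, 0 to 3 and 6 to 17 without 1 mouse. Over all genes the reported 1195, 59 and 2546 became 1910, 268 and 3427 with DESeq2, 5672, 1205 and 4880 with limma-voom, 3879, 8 and 1262 with only the 2 groups compared, 37, 0 and 85 with the lane, 4369, 1287 and 4092 with DESeq2 without STAM-I-BET151 mouse 3, 2052, 26 and 4162 at the other thresholds, and 101 in the middle comparison with no low-count filter. Without 1 mouse they ranged over 546 to 3779, 13 to 403 and 1292 to 3731. The highest values of the first and second range, 3779 and 403, came without STAM-I-BET151 mouse 3.

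The replicate number as a block left 2, 0 and 2 members past the threshold, 3, 1 and 9 of the other 40 genes, and 742, 10 and 1573 of all genes. In STAM-vehicle against healthy liver the blocked log2 fold change was 0.86 for Cyp7a1 (adjusted p = 0.0469) and -1.25 for Nr0b2 (0.00911), and in STAM-I-BET151 against healthy it was -1.33 for Cyp8b1 (0.0496). Deviations of same-numbered mice from their group means correlated at -0.35 to 0.09, and those of different-numbered mice of different groups at -0.31 to 0.3. These values gave no sign of pairing by number. STAM-vehicle and STAM-I-BET151 mice 1, 3 and 4 shared lanes 6, 7 and 2. The block and the lane are therefore partly the same between these 2 groups.

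Some log2 fold changes changed sign, none of them past the threshold, and the cause was not tested. In STAM-vehicle against healthy liver, Slc10a1 was at -0.0235 with DESeq2, -0.0183 with RLE normalization and with DESeq2 without STAM-I-BET151 mouse 3, -0.0153 with only the 2 groups compared, -0.0194 with the block and -0.0602 to 0.0849 without 1 mouse. The lane turned Cyp7b1 from -0.667 to 0.651, Abcb11 to 0.197 and Baat to 0.065. Ranges without 1 mouse were -0.24 to 0.0201 for Abcb11, -0.0165 to 0.104 for Nr1h4, -0.0167 to 0.206 for Akr1d1 and -0.18 to 0.218 for Ppargc1a, which was at -0.123 with limma-voom. In STAM-I-BET151 against STAM-vehicle liver, limma-voom gave 0.0527 for Abcb11, -0.0389 for Nr1h4 and 0.401 for Slc51b (reported as -0.426), the lane gave 0.013 for Cyp27a1 and -0.338 for Cyp3a11, and DESeq2 without STAM-I-BET151 mouse 3 gave 0.0843 for Cyp8b1, 0.0659 for Abcb11, 0.046 for Hsd17b4 and 0.0614 for Abcd3. Ranges without 1 mouse there were -0.437 to 0.0785 for Cyp8b1, -0.178 to 0.0511 for Cyp27a1, -0.384 to 0.0629 for Abcb11, -0.664 to 0.131 for Slc51b, -0.366 to 0.496 for Cyp3a11, -0.378 to 0.0416 for Hsd17b4 and -0.409 to 0.0563 for Abcd3. Counts under 100 for Slc51b limit its precision, and with 4 mice per group the calls near a threshold rest on single mice.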
